A study of Mus musculus with 16 samples.

Results

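Complex I (NADH:ubiquinone oxidoreductase) is the first enzyme of the mitochondrial respiratory chain, and the transcripts described here are those of its nuclear-encoded subunits and of the NDUFAF assembly factors in brown adipose tissue (BAT). All gene symbols that begin with Ndufa, Ndufb, Ndufc, Ndufs or Ndufv were taken, without pseudogenes, which gave 47 members of the 49066 gene symbols to which transcripts were summed. Of these, 39 encode structural subunits by name and 8 are assembly factors (Ndufaf1 to Ndufaf8). The choice uses only the symbols and no measured value, although it was made with earlier results of these data known. Ndufb1-ps was kept as a structural subunit because RefSeq lists the same gene as the protein-coding Ndufb1, although the annotation release used for the sums types it as a long non-coding RNA. The 4 pseudogene symbols that match the same pattern (Ndufa11b, Ndufab1-ps, Ndufb4c and Ndufs6b) were left out.

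Complex I oxidises NADH in the matrix, passes the electrons to ubiquinone and pumps protons across the inner membrane. In the matrix arm, the N module binds NADH and the Q module reduces ubiquinone, while the membrane arm carries the proton pumps, whose core subunits are encoded by the mitochondrial genome. Nuclear-encoded core subunits hold the flavin and the iron-sulfur clusters, the accessory subunits surround them, and the assembly factors help to put modules together and are absent from the finished enzyme. Brown adipocytes are densely packed with mitochondria and burn fuel through this chain for heat.

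BAT was taken from 4 WT and 4 KO males and from 4 WT and 4 KO females, each library being 1 mouse. KO mice were Gdf15 fl/fl animals that also carried the Ucp1-Cre transgene, so that the floxed Gdf15 alleles are removed in thermogenic adipocytes that express Ucp1 and remain in all other cells of the tissue. WT mice were Gdf15 fl/fl littermates without Cre, so that floxed alleles are shared by all 4 groups, as are the C57BL6/J background, an age of 18 weeks and 12 weeks on a high-fat diet (HFD). The comparisons ask how loss of BAT-derived GDF15, a stress-induced hormone, changes the tissue in each sex.

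All values below are TPM (transcripts of a gene among all transcripts of a library, scaled to a fixed total), summed per gene and divided by a rescaling factor per library, which lay between 0.839 and 1.16. Read depth is unknown, because TPM keep no count of reads, so no counting interval can be given. Transcripts of the mitochondrial genome held 34.5 to 59.8% of the TPM of a library, and the 47 members 1.15 to 2.21%. Transcripts absent from the annotation used here held 0.333 to 17.7%, the highest share being in WT female 4. Gdf15, the targeted gene, measured 0.438, 0.645, 1.63 and 3.61 TPM in the WT males against 0.0875, 0.0689, 0.229 and 0.254 TPM in the KO males. In females it measured 0.0589, 0.37, 0.171 and 0.338 TPM in WT and 0, 0, 0.0871 and 0 TPM in KO, so that 1 WT female lay below 1 KO female at levels close to 0. Ucp1, the uncoupling protein that marks brown adipocytes, reached a mean of 3440 TPM over the 16 libraries. All 47 members passed the filter of a mean of at least 1 TPM, and none was left out.

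Structural subunits were far more abundant than assembly factors. TPM are corrected for transcript length, so levels can be set side by side between genes. Mean levels over the 16 libraries had a median of 376 TPM for the 39 structural subunits, from 10.3 to 1553 TPM, and of 26.1 TPM for the 8 assembly factors, from 10.6 to 38.8 TPM, a 14.4-fold difference of the medians. Highest of all stood Ndufa4 (1553 TPM), whose product is by function a subunit of cytochrome c oxidase (complex IV). Other abundant subunits were Ndufb8 of the distal membrane arm (1067 TPM), Ndufa3 of the proximal membrane arm (736 TPM) and Ndufv1, which binds NADH and flavin (730 TPM).

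Lowest among the symbols counted as structural was Ndufa4l2 (10.3 TPM), a relative of Ndufa4 known as a hypoxia-induced gene, followed by Ndufb4 (84.1 TPM), Ndufb2 (193 TPM), Ndufa13 (205 TPM) and Ndufb1-ps (212 TPM). The Ndufb4 value is uncertain, because its transcripts share an identical stretch with the pseudogene Ndufb4c, which was listed at a mean of 408 TPM, and reads from such a stretch cannot be assigned to either. Among assembly factors the order of mean levels was Ndufaf3 (38.8 TPM), Ndufaf8 (31.5 TPM), Ndufaf7 (28.3 TPM), Ndufaf1 (27.1 TPM), Ndufaf4 (25.2 TPM), Ndufaf2 (17.8 TPM), Ndufaf5 (17.5 TPM) and Ndufaf6 (10.6 TPM). Neighbours in this order overlapped over the mice, except that the lowest mouse for Ndufaf5 (13.6 TPM) lay above the highest for Ndufaf6 (13.2 TPM).

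**Figure D1:**
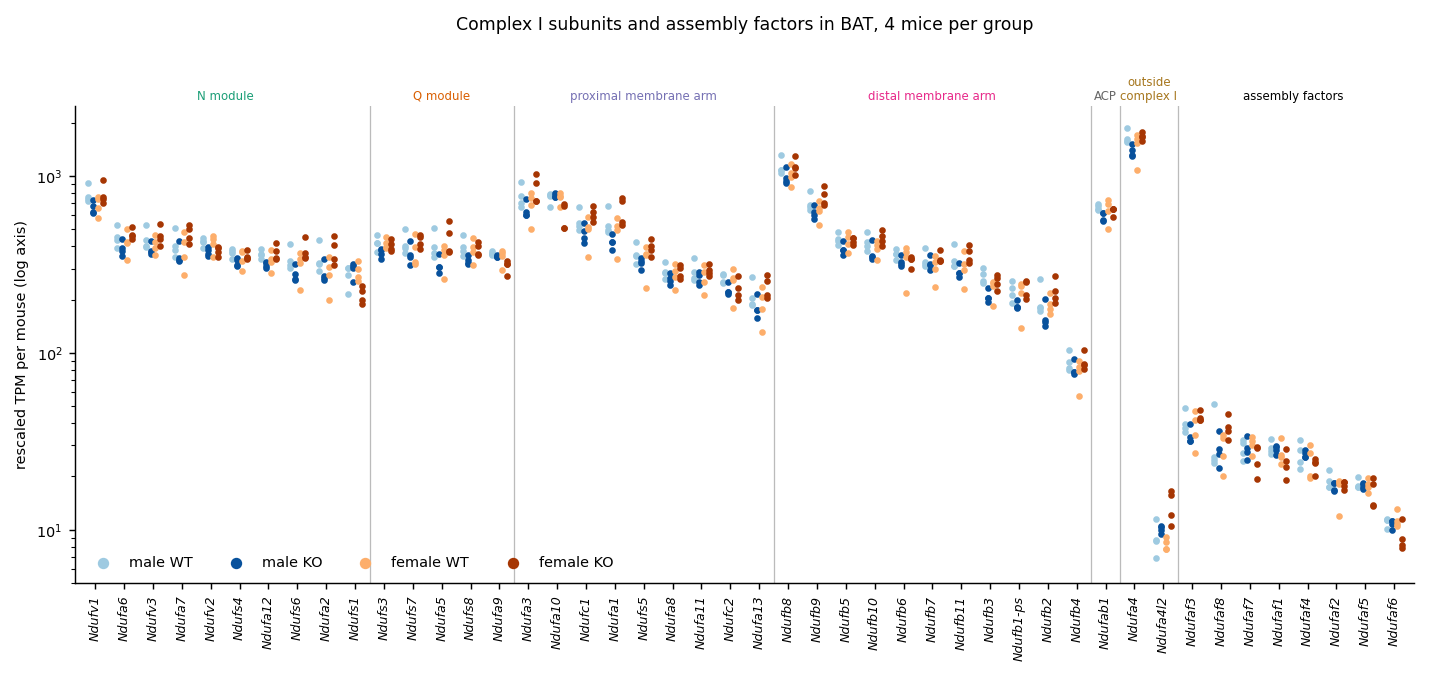
Rescaled TPM of 46 of the 47 members in each mouse on a log axis, grouped by module of complex I (ACP, the acyl carrier Ndufab1), with 4 dots per group of mice. All assembly factors sit between 7.88 and 51.2 TPM, whereas every structural symbol but Ndufa4l2 has all its dots at or above 56.8 TPM.

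Structural subunits also varied together from mouse to mouse. Over the 16 libraries the 741 pairs of structural symbols had a median Pearson correlation of 0.77, and 662 pairs were positive. This is a description, since all genes of a library share its scaling, RNA quality and cell mix. Ndufs1, which carries iron-sulfur clusters of the N module, ran against the rest (r = -0.57 with the mean of the other structural symbols), as did Ndufa10 (r = -0.41). The largest transcript of Ndufa10 was not annotated as protein-coding and held 46.4% of its TPM on average. For the assembly factors the same correlation ranged from -0.31 for Ndufaf6 to 0.89 for Ndufaf3.

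As examples of member promoters, sequences were read for 3 members from RefSeq (build GRCm38.p6), from 250 bases before to 30 bases after the gene start, 5′ to 3′ on the strand of the gene. RefSeq held such a sequence for 41 of the 47 members. Ndufb3 is shown as the member with the most negative log2 fold change in male KO mice (chr1:58586147-58586426, + strand), and Ndufaf8 as the assembly factor with the most positive one in female KO mice (chr11:120098684-120098963, + strand). Ndufaf4 is shown for its NRF1 letters (chr4:24897833-24898112, + strand). Capitals mark the letters AAGATGGCG of the YY1 motif or GCATGCGC of the NRF1 motif, read on either strand, where both readings of NRF1 overlap in GCGCATGCGC.
Ndufb3: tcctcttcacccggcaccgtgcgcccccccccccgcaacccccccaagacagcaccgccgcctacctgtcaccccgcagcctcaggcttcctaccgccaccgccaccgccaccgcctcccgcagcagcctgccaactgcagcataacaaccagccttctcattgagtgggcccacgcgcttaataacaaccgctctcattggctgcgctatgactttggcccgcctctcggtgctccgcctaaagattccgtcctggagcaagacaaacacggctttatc
Ndufaf8: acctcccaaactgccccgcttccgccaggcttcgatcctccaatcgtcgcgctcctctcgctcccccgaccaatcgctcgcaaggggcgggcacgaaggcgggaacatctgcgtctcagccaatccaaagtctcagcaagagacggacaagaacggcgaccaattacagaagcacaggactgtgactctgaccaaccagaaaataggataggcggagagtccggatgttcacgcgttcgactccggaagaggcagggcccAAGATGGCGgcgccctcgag
Ndufaf4: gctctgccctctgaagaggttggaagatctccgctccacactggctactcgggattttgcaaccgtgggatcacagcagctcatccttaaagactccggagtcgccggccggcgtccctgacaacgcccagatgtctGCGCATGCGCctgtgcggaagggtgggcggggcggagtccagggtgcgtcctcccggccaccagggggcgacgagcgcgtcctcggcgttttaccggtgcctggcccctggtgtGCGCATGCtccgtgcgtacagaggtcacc

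Ndufb3 held neither motif, Ndufaf8 held the YY1 letters from base 11 after the start, and Ndufaf4 held NRF1 letters both upstream and across the first bases of the gene. Over the 41 members with a sequence, the NRF1 letters stood in 5 (Ndufa11, Ndufa6, Ndufa8, Ndufaf4 and Ndufaf5), or 12.2%, against 2.92% of all 27025 symbols with a sequence of that length. The YY1 letters stood in 1 member (Ndufaf8) against 1.22% of all symbols. Those of GABP (CCGGAAGT) stood in 1 (Ndufs3) against 4.12%, and those of the oestrogen-related receptors (TCAAGGTCA) in 0 against 0.459%. A match is a description of letters and not a binding site.

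Between WT males and WT females no member passed the threshold of an adjusted p under 0.05 (limma on log2(TPM + 0.5), adjusted over all genes tested), against a background of 0.074% of 12157 genes. Of the 47 members, 44 were higher in males, with a median log2 difference of 0.12, where all genes tested had a median of 0.00. The structural mean log2 level was 8.43 to 8.74 in WT males and 8.10 in WT female 4. In the other WT females it was 8.46 to 8.62, within the male range. The top of that range was WT male 2 (8.74), and the other WT males had 8.43 to 8.51. Without WT male 2 the structural median was 0.07, against 0.12 with it. The offset thus leans on WT female 4 and WT male 2. None of the 47 had an unadjusted p under 0.05 with a higher male level, which 2.88% of all genes had. The smallest adjusted p of a member was 0.844, so no single member differed by more than the spread between mice. The names of WT male libraries began with the labels 5 and 9 and those of WT female libraries with 8b and 10, so that sex and label cannot be told apart in this comparison. The p-values here and below measure the spread between individual mice, and a log2 fold change is a difference of mean log2(TPM + 0.5), which understates the change of genes with low levels.

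Male KO mice had lower transcript levels of most structural subunits than male WT mice, although no member passed the adjusted threshold. Of 39 structural symbols, 36 were lower in KO, with a median log2 fold change of -0.19, while all 12085 genes tested had a median of 0.00. Without multiple-testing adjustment, 13 of the 47 members (27.7%) had a p under 0.05 and were lower in KO, all structural, against 7.31% of all genes tested, and 0 were higher, against 8.29%. After adjustment 0 of the 47 members were called, where 0.0248% of all genes were. In 6 members (12.8%) all 4 KO males lay below all 4 WT males, a pattern that 4.29% of all genes had, and no member showed the opposite, which 4.84% of all genes did. The 6 were Ndufb3, Ndufa1, Ndufa12, Ndufa4, Ndufa9 and Ndufab1.

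The number with an unadjusted p under 0.05 was sensitive to single libraries and ranged from 3 without KO male 4 to 25 without KO male 1. Of all genes, 1350 of 12073 and 1960 of 12066 had such a p in these fits, in either direction, as are the counts in brackets below. The number of members was 6 without WT male 1 (1330 of 12085 genes), 7 without KO male 2 (1335 of 12086) and 4 without KO male 3 (1341 of 12074). In each of these fits 36 of 39 structural symbols were lower. With the library label as a covariate the number of members was 4 (1158 of 12085 genes). With the TPM as deposited it was 0 (2281 of 12177 genes), and 27 of 39 structural symbols were lower with a median of -0.02, at a median over all genes of 0.16.

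By role, the medians of the modules lay between -0.21 and -0.19. In the N module 9 of 10 subunits were lower (median log2 fold change -0.19), in the Q module 6 of 6 (-0.19), in the proximal membrane arm 8 of 9 (-0.21) and in the distal membrane arm 11 of 11 (-0.19). Of the 7 nuclear-encoded core subunits, 6 were lower (-0.19), and the mean log2 level over these 7 lay lower in all 4 KO males (8.67 to 8.816) than in all 4 WT males (8.818 to 9.01). These ranges nearly touch, and they depend on the rescaling factors (0.839 to 1.07 in WT males, 1.05 to 1.16 in KO males). The same means over the N module, the Q module, the proximal membrane arm and the distal membrane arm overlapped in males. So did those over the accessory subunits and over all structural symbols. The mean over the structural subunits of 1000 bases and over separated with KO lower, as did that over the further assembly factors described below. How often such a mean separates over arbitrary sets of genes was not computed.

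Ndufb3, an accessory subunit of the distal membrane arm, had the most negative log2 fold change. It measured 279, 300.2, 254 and 247 TPM in WT males and 234, 203, 206 and 193 TPM in KO males, and no KO male reached the lowest WT male (log2 fold change -0.37 ± 0.09 SE, adjusted p = 0.142). Ndufa5, an accessory subunit of the Q module, measured 398, 509, 365 and 348 TPM in WT and 362, 308, 307 and 282 TPM in KO, where KO male 1 lay within the WT range (log2 fold change -0.35 ± 0.13 SE, adjusted p = 0.262). For Ndufa1, a small membrane-spanning subunit of the proximal arm, the values were 520.4, 681, 495 and 486 TPM in WT and 471, 425, 423 and 384 TPM in KO, and the groups did not overlap (log2 fold change -0.35 ± 0.12 SE, adjusted p = 0.243).

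Ndufb2 of the distal arm and Ndufs6, a zinc-binding subunit of the N module, followed, with groups that overlapped. Ndufb2 measured 181, 262, 178 and 171 TPM in WT and 203, 153, 149 and 141 TPM in KO, and its highest value by far was that of WT male 2 (log2 fold change -0.29 ± 0.16 SE, adjusted p = 0.428). Ndufs6 measured 330.2, 412, 316 and 302 TPM in WT and 319.6, 281, 259.6 and 260.3 TPM in KO (log2 fold change -0.28 ± 0.11 SE, adjusted p = 0.305). At the other end, Ndufs1 (log2 fold change 0.12 ± 0.13 SE, adjusted p = 0.697) and Ndufa10 (log2 fold change 0.04 ± 0.07 SE, adjusted p = 0.838) had positive values that did not pass the threshold.

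Abundant subunits shared the direction of the group. Ndufa4 measured 1627, 1875, 1577 and 1564 TPM in WT males and 1517, 1405, 1321 and 1295 TPM in KO males, without overlap (log2 fold change -0.26 ± 0.09 SE, adjusted p = 0.226). The corresponding log2 fold changes were -0.24 ± 0.10 for Ndufv1, -0.25 ± 0.12 for Ndufa3 and -0.19 ± 0.10 for Ndufb8, each with overlapping groups. Among the least abundant, Ndufb1-ps had -0.26 ± 0.09, Ndufa13 -0.23 ± 0.14 and Ndufb4 -0.13 ± 0.10 as log2 fold change, none past the adjusted threshold.

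Assembly factors differed little in males, with 6 of 8 lower and a median log2 fold change of -0.04. Ndufaf3, which binds an early Q-module intermediate together with Ndufaf4, had the largest difference, with 39.4, 48.5, 35.7 and 37.5 TPM in WT and 39.7, 33.5, 31.6 and 31.6 TPM in KO (log2 fold change -0.23 ± 0.11 SE, adjusted p = 0.37). Its partner Ndufaf4 had a log2 fold change of 0.02 ± 0.12. The others were Ndufaf1, part of the complex that builds the membrane arm, at -0.03 ± 0.08, Ndufaf2, a relative of the subunit Ndufa12, at -0.09 ± 0.09, and Ndufaf5, which hydroxylates an arginine of Ndufs7, at -0.03 ± 0.06. Ndufaf6, an early factor of the membrane arm, stood at -0.04 ± 0.07, Ndufaf7, an arginine methyltransferase, at 0.00 ± 0.12, and Ndufaf8, the partner of Ndufaf5, at -0.09 ± 0.25. None of the 8 passed the adjusted threshold, and with the TPM as deposited the median of the 8 was 0.13.

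**Figure D2:**
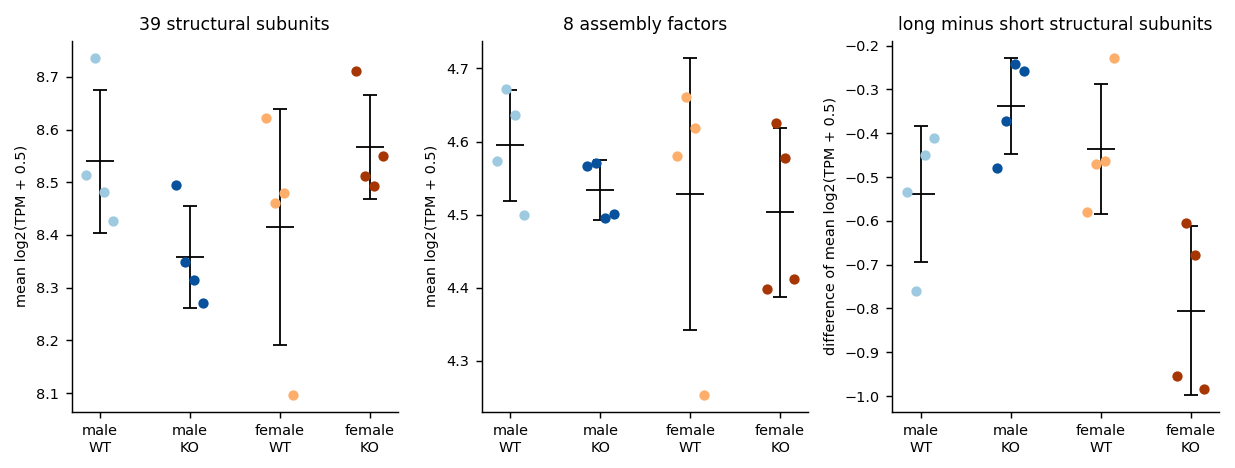
Mean log2(TPM + 0.5) per mouse over the 39 structural subunits (left) and the 8 assembly factors (middle), and the mean of 6 structural subunits of 1000 bases and over minus that of 5 under 500 bases (right), with the group mean and SD as bars (4 mice per group). The structural means of male KO lie lower than those of male WT with overlap, and in females the right-hand difference is lower in every KO mouse (-0.98 to -0.60) than in any WT mouse (-0.58 to -0.23). These female ranges nearly touch, and WT male 2 (-0.76) lies within the range of the KO females. A rate of such separation over arbitrary sets of genes was not computed.

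In females the sign of the structural group was the opposite, and the mice overlapped. Of the 39 structural symbols 33 were higher in KO, with a median log2 fold change of 0.17, while all 12219 genes tested had a median of 0.00. No member passed the adjusted threshold, and neither did any other gene (0%). At an unadjusted p under 0.05, 2 members were higher (Ndufa4l2 and Ndufaf8), against 9.95% of all genes, and 3 were lower (Ndufs1, Ndufa10 and Ndufaf6), against 10.3%, so the members' shares (4.26% and 6.38%) lay under the background. All 4 KO females lay below all WT females in 1 member (Ndufs1), against 6.48% of all genes, and above them in 1 member (Ndufa4l2), against 5.41%. Without WT female 1, 10 members were higher and 1 was lower at that level, which 2440 of 12263 genes passed in either direction. Each count was 1 without WT female 2 (1610 of 12222 genes), KO female 1 (1415 of 12220) or KO female 4 (1596 of 12223). Without WT female 4, 1 member was higher and 3 were lower (2305 of 12123 genes). WT female 4 had the lowest structural mean of all 16 mice. The structural median was 0.08 without it and 0.11 without KO female 1. With the TPM as deposited, 35 of 39 structural symbols were higher with a median of 0.28, at a median over all genes of 0.10.

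All 11 distal membrane arm subunits were higher in KO (median log2 fold change 0.20), as were 7 of 9 in the proximal arm (0.25) and 8 of 10 in the N module (0.17), whereas the Q module had 4 of 6 higher (0.06). Of the 7 core subunits 4 were higher, with a median of 0.02. Among the assembly factors 5 of 8 were lower, with a median of -0.09.

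Ndufa2, an N-module subunit with a thioredoxin-like fold, stood out on the high side with 351, 274, 307 and 199 TPM in WT and 458, 312, 341 and 409 TPM in KO females (log2 fold change 0.44 ± 0.20 SE, adjusted p = 0.249). Ndufa1 followed with 580.2, 498, 519 and 338 TPM in WT and 749, 527, 548 and 721 TPM in KO (log2 fold change 0.40 ± 0.20 SE, adjusted p = 0.276). Ndufa13, a membrane-arm subunit also known as GRIM-19, had 236, 177, 207 and 131 TPM in WT and 276, 211, 205 and 256 TPM in KO (log2 fold change 0.36 ± 0.19 SE, adjusted p = 0.309). In all 3 the lowest value was that of WT female 4 and the groups overlapped.

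Ndufs1 had the most negative log2 fold change of the members in females. It measured 269, 331, 297 and 254 TPM in WT and 189.9, 239.7, 223 and 198 TPM in KO, and every KO female lay below every WT female (log2 fold change -0.44 ± 0.12 SE, adjusted p = 0.174). Ndufa10, an accessory subunit of the membrane arm with a nucleoside-kinase fold, measured 762, 802, 771 and 672 TPM in WT and 506, 675, 694 and 506 TPM in KO, where the groups overlapped (log2 fold change -0.35 ± 0.14 SE, adjusted p = 0.221). Its protein-coding transcript of 2020 bases held only 8.64% of its TPM on average. From protein-coding transcripts only, no proximal arm subunit, Ndufa10 included, had a female log2 fold change below -0.10. Ndufs1 and Ndufa10 were also the structural complex I subunits with the least negative change in males.

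Of the assembly factors, Ndufaf8 was higher with 34.5, 26.3, 33.0 and 20.2 TPM in WT and 45.0, 36.3, 32.3 and 38.0 TPM in KO females (log2 fold change 0.42 ± 0.18 SE, adjusted p = 0.239). Ndufaf6 was lower with 11.2, 13.2, 10.4 and 10.7 TPM in WT and 8.15, 11.5, 8.86 and 7.88 TPM in KO (log2 fold change -0.32 ± 0.13 SE, adjusted p = 0.235). Ndufaf7 (-0.27 ± 0.15), Ndufaf1 (-0.20 ± 0.15), Ndufaf5 (-0.14 ± 0.14) and Ndufaf4 (-0.04 ± 0.15) also had negative log2 fold changes, while those of Ndufaf3 (0.23 ± 0.16) and Ndufaf2 (0.11 ± 0.15) were positive. Groups overlapped in all 8.

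**Figure D3:**
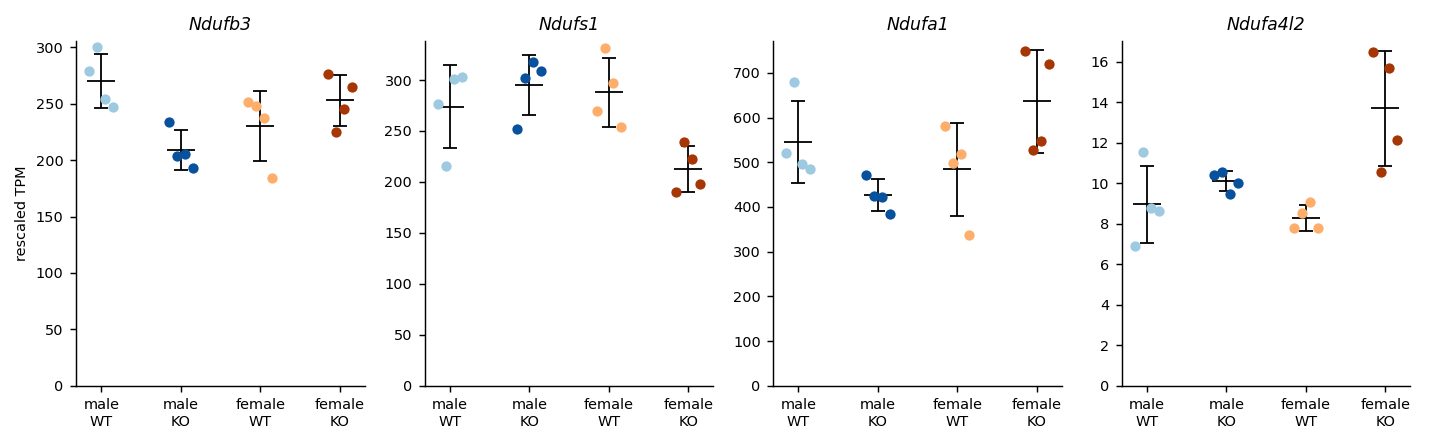
Rescaled TPM of Ndufb3, Ndufs1, Ndufa1 and Ndufa4l2 in each mouse, with the group mean and SD as bars (4 mice per group, axes from 0). Ndufb3 and Ndufa1 are lower in every male KO than in any male WT mouse, Ndufs1 is lower in every female KO mouse, and Ndufa4l2 is higher in every female KO mouse than in any female WT mouse.

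An interaction term in 1 fit of all 16 libraries asked whether males and females differed in the KO effect. No member passed the adjusted threshold, and neither did any other gene (0% of 12213). The effect in males minus that in females was negative for 36 of 39 structural symbols, with a median log2 value of -0.38, and positive for 5 of 8 assembly factors, with a median of 0.08. At an unadjusted p under 0.05 it was negative in 21 members (44.7%), against 9.02% of all genes, and positive in 2 (Ndufs1 and Ndufa10), against 9.98%. From protein-coding transcripts only, no proximal arm subunit, Ndufa10 included, had a difference above 0.03. The smallest adjusted p was 0.183. This difference was -0.51 ± 0.15 for Ndufb3, -0.75 ± 0.24 for Ndufa1, 0.55 ± 0.18 for Ndufs1, -0.70 ± 0.23 for Ndufa5 and -0.70 ± 0.25 for Ndufa2 (log2 ± SE). The number of negative members ranged from 11 (without WT male 2 or without WT female 4) to 26 (without WT female 1). Of all genes, 1543 of 12204, 2131 of 12145 and 2577 of 12223 passed that level in these fits, in either direction. The number of negative members was 12 without KO female 1 (1578 of 12205 genes) and 13 without KO male 3 (1780 of 12201) or KO male 4 (1820 of 12209). With the length and GC trend removed it was 13 (2221 of 12213 genes), with the library label as a covariate 13 (1486 of 12213) and with the TPM as deposited 1 (1737 of 12210).

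**Figure D4:**
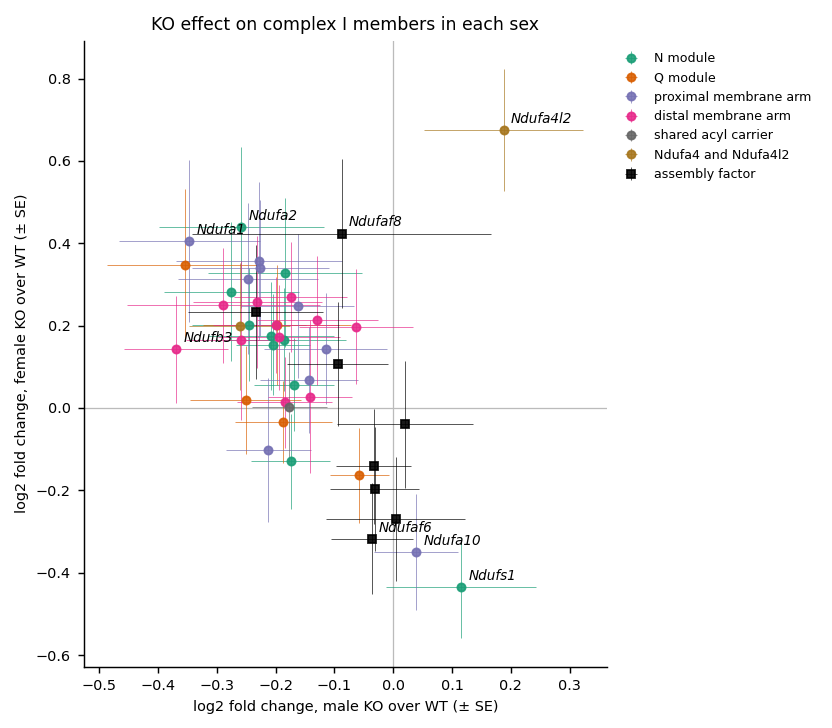
Log2 fold change of KO over WT in males (horizontal axis) and in females (vertical axis) for 46 of the 47 members, with SE as bars and colours for the modules. Most structural subunits lie in the upper left, lower in male KO and higher in female KO, while Ndufs1 and Ndufa10 lie in the lower right and Ndufa4l2 is positive on both axes.

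Structural subunits and assembly factors were then compared within each mouse, which cancels the scaling of a library. The mean log2 level of structural subunits minus that of assembly factors was 3.94 ± 0.09 (SD, n = 4) in male WT and 3.82 ± 0.07 in male KO, a difference of -0.12 with overlapping mice. In females it was 3.89 ± 0.11 in WT and 4.06 ± 0.20 in KO, a difference of 0.18, again with overlap. Neither difference was tested, since these members were taken up with earlier results known. The summed TPM of the 39 structural symbols ranged from 16599 to 20477 in male WT, from 14797 to 17224 in male KO, from 13231 to 18886 in female WT and from 17244 to 20195 in female KO.

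Library names carry a leading label that was not balanced over the groups. Within the label 9, which held 2 WT and 3 KO males, the structural mean was 0.14 lower in KO on the log2 scale. For females the label 10 held 1 WT and 1 KO mouse (KO 0.09 higher) and the label 8b held 3 WT and 1 KO mouse (0.15 higher). Within 8b the structural mean was 8.49 in the KO mouse and 8.46, 8.48 and 8.10 in the WT mice. The low value of WT female 4 thus makes up most of that difference. What the label stands for is not given in the sources used here.

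Transcript length went with the KO effect of the members. Across the 47 members the Spearman correlation of the log2 fold change with transcript length was 0.49 in males and -0.61 in females (all genes tested, 0.08 and -0.25). These are descriptions across genes, which are not independent. The 5 structural symbols under 500 bases had a median log2 fold change of -0.26 in males and 0.34 in females, the 28 of 500 to 1000 bases -0.19 and 0.17, and the 6 of 1000 bases and over -0.10 and -0.03. All genes tested in the same 3 length classes had medians of -0.13, -0.08 and 0.01 in males and of 0.02, 0.16 and -0.02 in females. Once a smooth trend on length and GC content was taken out of each library, 36 of 39 structural subunits were still lower in male KO (median -0.17). In that male fit 29 members had an unadjusted p under 0.05 and a lower level, where 1987 of 12085 genes had such a p in either direction. In females 22 of 39 structural subunits were higher with a median of 0.04.

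**Figure D5:**
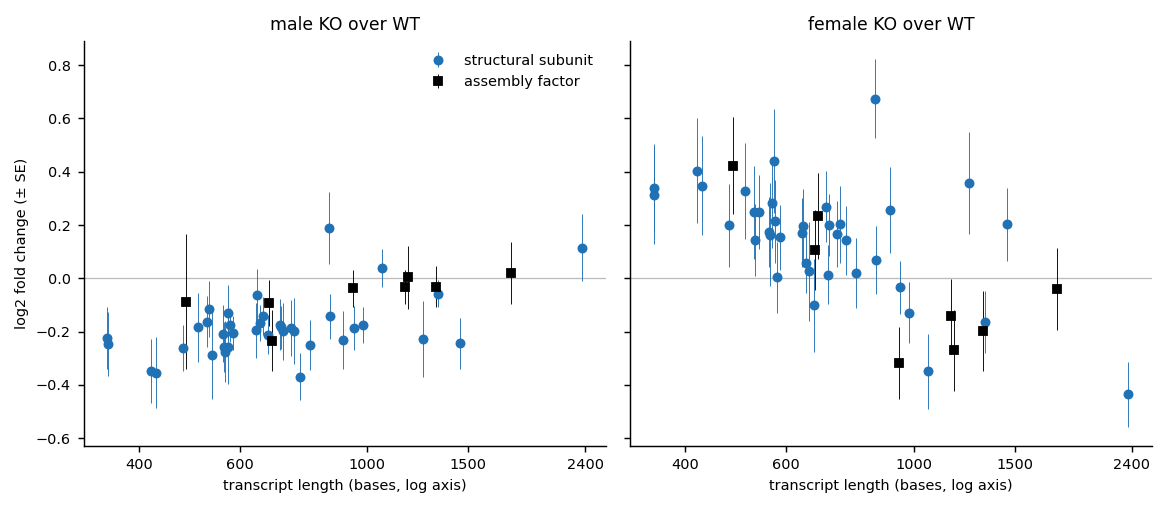
Log2 fold change of KO over WT (with SE as bars) against transcript length on a log axis for 46 of the 47 members, males left and females right. The class of structural subunits under 500 bases has the most negative median in males (-0.26) and the most positive in females (0.34), and the longest member, Ndufs1, is at 0.12 in males and -0.44 in females.

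Short transcripts of long subunits differed between libraries as well. For Ndufv1, whose main transcript has 1661 bases, transcripts under 700 bases held 3.36, 20.8, 3.59 and 5.37% of its TPM in male WT mice, 4.75, 2.85, 4.86 and 4.15% in male KO, 5.40, 4.31, 5.24 and 5.91% in female WT and 34.3, 7.57, 7.84 and 25.1% in female KO. For Ndufs3, a core subunit of the Q module, the same share was 11.1, 12.0, 10.9 and 10.99% in female WT and 29.1, 12.1, 13.5 and 26.9% in female KO. In both genes every KO female lay above every WT female, although for Ndufs3 the ranges nearly touched (12.0% in WT female 2 and 12.1% in KO female 2). In 9 members the protein-coding transcript with the largest share had 1000 bases or over, and another transcript had under 700. That protein-coding transcript need not be the largest of the gene, as in Ndufa10. Every KO female lay above every WT female in 3 of the 9. How often genes outside the members do so was not computed. The mean share was higher in female KO in 5 and lower in 4 (Ndufa10, Ndufaf1, Ndufaf5 and Ndufaf6), and for Ndufa10 KO female 1 had the lowest share of all mice (21.9%). Of the male mice, WT male 2 had the highest share in Ndufv1 and Ndufs3, and it was also the highest male in Ndufs1, with 16.8%.

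KO female 1, KO female 4 and WT male 2 thus stood apart, and results were repeated without these 3 libraries, a choice made after seeing the data. In males 36 of 39 structural symbols were still lower (median -0.13). In females 32 of 39 were still higher, at a median of 0.09, with WT female 4 kept. The structural means of KO females 2 and 3, which remained, were 8.51 and 8.49. Those of WT females 1 to 4 were 8.62, 8.46, 8.48 and 8.10, so the female direction here rests on WT female 4. The male minus female effect was again negative in 36 of 39 (median -0.23). For it 0 of the 47 members then had an unadjusted p under 0.05, where 689 of 12194 genes did. The female difference between structural subunits and assembly factors was 0.01. The part of RNA quality in these results was not tested.

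Only protein-coding transcripts gave Ndufs1 a log2 fold change of -0.77 in females, against -0.44 ± 0.12 over all its transcripts. For 37 of the 47 members the largest transcript was annotated as protein-coding. Ndufv3, an N-module subunit with a long and a short form, had on average 76.1% of its TPM in the short transcript of 493 bases and 21.98% in the long one of 1582 bases. The short form held 74.9 ± 4.0% in male WT, 74.7 ± 1.4% in male KO, 75.4 ± 2.2% in female WT and 79.3 ± 4.8% in female KO (SD, n = 4), so the groups overlapped.

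Ndufa4l2 was the single member past the adjusted threshold in any comparison. It measured 6.90, 11.5, 8.76 and 8.61 TPM in male WT, 10.4, 10.6, 9.47 and 10.0 TPM in male KO, 7.76, 8.55, 9.06 and 7.77 TPM in female WT and 16.5, 10.5, 15.7 and 12.1 TPM in female KO. Every KO female lay above every WT female, while KO males lay within the range of WT males. The mean KO effect over both sexes was a log2 fold change of 0.43 ± 0.10 (SE, adjusted p = 0.0368, limma), 1 of 47 members (2.13%) where 3.75% of all 12213 genes were called. The effect was log2 fold change 0.67 ± 0.15 SE, adjusted p = 0.169 in females and log2 fold change 0.19 ± 0.14 SE, adjusted p = 0.54 in males, and the difference between the sexes was -0.49 ± 0.21 (adjusted p = 0.23). The adjusted p of the mean effect lay between 0.0118 and 0.0767 when single libraries were left out, and stayed under 0.05 in 5 of 16 such fits, those without WT male 2, WT female 3, WT female 4, KO female 2 or KO female 4. It was 0.0534 with the replicate block, 0.0669 with the library label as a covariate, 0.0973 with the length and GC trend removed (0.124 with the block as well) and 0.136 without a TPM minimum. All 4 endothelial marker genes also had positive log2 fold changes in female KO (median 0.62), with summed levels of 130.1 to 194 TPM in WT and 174 to 337 TPM in KO, and 3 of 4 in male KO (0.25). Their part in the result was not tested.

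Genes beyond the members that belong to the same enzyme gave the following counts. Of 13 further complex I assembly factors, chosen as a list with earlier results known, 12 were tested in each sex. Of these, 11 were lower in male KO (median -0.10) and 9 in female KO (median -0.09), none past the adjusted threshold. Their summed level after rescaling was lower in every male KO mouse (350.3 to 361 TPM) than in any male WT mouse (364 to 399.992 TPM). The separation depends on the rescaling factors, by which levels are divided. These were 0.839 to 1.07 in WT males and 1.05 to 1.16 in KO males. In males the macrophage and fibroblast marker sums described below also separated, with KO higher. The sums of the structural symbols, the Ndufaf members and the mt-Nd genes overlapped. So did those of the brown adipocyte, skeletal muscle, endothelial, white adipocyte and lymphocyte markers. A rate of separation over arbitrary gene lists was not computed. All 7 subunits encoded by the mitochondrial genome (mt-Nd genes) were lower in KO in both sexes, with medians of -0.21 in males and -0.14 in females, none past the threshold, and with summed levels that overlapped.

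Marker genes of other cells also differed between the groups, and in bulk tissue fewer brown adipocytes and less RNA per brown adipocyte cannot be told apart. Of 9 brown adipocyte markers, 8 were lower in male KO (median -0.23) and 8 higher in female KO (0.21), the same signs as the structural subunits. Their sums overlapped, with 9137 to 11891 TPM in male WT, 8398.5 to 9875 in male KO, 7010 to 9562 in female WT and 8102 to 11560 in female KO. Their mean log2 level was 7.40 in KO female 4, 6.31 to 6.75 in the other KO females and 6.30 to 6.56 in WT females. In male KO all 6 macrophage markers (median 0.69) and all 5 fibroblast markers (0.22) were higher. The summed macrophage level was 32.4 to 49.5 TPM in male WT and 64.6 to 93.1 TPM in male KO, and the summed fibroblast level 60.8 to 81.9 and 91.8 to 104 TPM. In females the macrophage sums ranged from 35.8 to 73.3 TPM in WT and from 38.2 to 61.9 TPM in KO, with medians of -0.06 for the macrophage and 0.04 for the fibroblast markers. Summed skeletal muscle markers ranged from 2.33 to 4201 TPM over the 16 libraries, with high and low mice in each group, and all 7 had positive log2 fold changes in both sexes (medians 0.23 and 1.39). White adipocyte markers were higher in KO in 1 of 3 cases in each sex (medians -0.30 and -0.60), and the 3 lymphocyte markers had mean levels of 0.192 to 0.802 TPM, under the filter. The part of these cell types in the members' differences was not tested.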

How the data were processed

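BAT libraries (polyA RNA, TruSeq Stranded mRNA) of 16 mice were read as single-end reads, and the authors quantified transcripts with kallisto 0.46.2 on GRCm39, tool and build as in the submitters' processing notes, and deposited 1 table of TPM, each library summing to 1000000. The authors also ran DESeq2, whose output is not used here. Transcripts (135051 matched, 2387 not) were summed per symbol with GENCODE M21, a GRCm38 release, so no coordinates from it are printed. Kallisto splits reads between near-identical transcripts, and short transcripts rest on few positions, so copies and short genes are the least certain values.

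Each library was divided by its median of ratios over 11712 genes. limma 3.58.1 (lmFit, eBayes with trend, R 4.3.3) was fitted on log2(TPM + 0.5) over all genes with a mean of at least 1 TPM, per sex and over all 16 libraries, with Benjamini-Hochberg adjustment over all genes tested at 0.05. Of the members, 1 is not reported here by name and is left out of the figures, while counts and medians of groups include it. The scripts were tested on simulated data. Samples were grouped by their titles. Named were all assembly factors, members past the threshold, the 5 highest and 5 lowest log2 fold changes per sex, the 5 highest and 5 lowest structural levels and the 5 smallest interaction p-values. Members, lists and tests were chosen with earlier results of these data known. Same-numbered mice did not all deviate together, so no pairing was used. Members named outside this rule, such as Ndufa9, Ndufa12, Ndufab1, Ndufs3 and Ndufv3, were singled out after their values were seen. Alternatives covered scaling, pseudocount, filter, transcripts, length and GC content, replicate block, library label and left-out libraries.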

Additional observations from a re-analysis of the deposited data

Results flagged for a closer look

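Of 108 groups of 4 mice examined (named members and 3 mean scores in each of the 4 groups), 5 held a value of a named member that stood far from the other 3 by the gap to the nearest mouse relative to the range of the group (above Dixon's 95% critical value, which chance alone passes in about 1 of 20 groups, so that a count of this size is near what chance gives). WT female 4 measured 11.9 TPM for Ndufaf2, where the other WT females lay between 18.2 and 18.8 TPM. WT male 3 measured 19.9 TPM for Ndufaf5 (other WT males 17.4 to 17.8 TPM). WT male 2 was high in 3 members, with 51.2 TPM for Ndufaf8 (others 24.0 to 25.8 TPM), 262 TPM for Ndufb2 (171 to 181 TPM) and 1324 TPM for Ndufb8 (1036 to 1083 TPM). Without WT male 2 the log2 fold change of Ndufaf8 in males was 0.17.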

How the results depend on the processing

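No member passed the adjusted threshold in males, between WT males and WT females, or for the male minus female KO effect under any alternative run. Between WT males and WT females the library label as a covariate could not be fitted, because no label holds both. In females 1 (Ndufa4l2) was called with all 16 libraries in 1 fit and 0 otherwise. For the mean KO effect over both sexes, 0 members were called without a TPM minimum, with the length and GC trend removed (with or without the replicate block) and with the library label as a covariate. Leaving out single libraries gave 0 to 2 members there, the second being Ndufv2 without WT female 4 and Ndufaf6 without KO female 2. With the replicate block alone 0 members were called in any comparison (Ndufa4l2, adjusted p = 0.0534 for the mean effect). Replicate numbers showed no pairing, since correlations of same-numbered mice ran from -0.11 to 0.35. The cause of these changes was not tested.

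The structural median was -0.0217 in males and 0.28 in females with the TPM as deposited. The male assembly factor median was 0.13 as deposited and 0.0298 when rescaled without the mitochondrial genome. The female difference of structural minus assembly means was 0.0149 without the 3 libraries rich in short transcripts. Leaving out single libraries gave structural medians of -0.26 to -0.13 in males and 0.077 to 0.25 in females, assembly factor medians of -0.0631 to -0.00871 and -0.15 to -0.0142, and differences of the 2 means of -0.15 to -0.0805 and 0.0942 to 0.24.

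Small log2 fold changes of named members changed sign as follows. As deposited, in males Ndufaf1 had 0.14, Ndufaf2 0.0737, Ndufaf5 0.13, Ndufaf6 0.13, Ndufaf8 0.0817 and Ndufb4 0.0429, and in females Ndufaf4 had 0.0636. Rescaled without the mitochondrial genome, in males Ndufaf1 had 0.0342, Ndufaf5 0.032 and Ndufaf6 0.0277, and in females Ndufaf4 had 0.0206. With the length and GC trend removed, with or without the block, in males Ndufaf1 had 0.0271 and Ndufaf5 0.0181, and in females Ndufaf4 had 0.0289 and Ndufb8 -0.00492. With the library label, in males Ndufaf8 had 0.047. From protein-coding transcripts only, in males Ndufa10 had -0.0472 and Ndufb4 0.0285, and in females Ndufaf4 had 0.0267, Ndufv1 -0.0401 and Ndufb8 -0.0149. Summed with pseudogene copies, in females Ndufb4 had -0.0463. Without the 3 libraries, in males Ndufaf4 had -0.0224, Ndufaf7 -0.0687, Ndufaf8 0.17 and Ndufa10 -0.0168, and in females Ndufaf4 had 0.00588 and Ndufaf5 0.0839. The last 2 alternatives were chosen after seeing the data. Leaving out single libraries gave, in males, -0.0168 to 0.0641 for Ndufa10, -0.0683 to 0.0259 for Ndufaf1, -0.0638 to 0.11 for Ndufaf4, -0.052 to 0.00966 for Ndufaf5, -0.0739 to 0.0714 for Ndufaf7 and -0.21 to 0.17 for Ndufaf8, and in females -0.0465 to 0.16 for Ndufaf2, -0.13 to 0.0689 for Ndufaf4 and -0.027 to 0.25 for Ndufb1-ps. TPM carry no read depth, so no counting error can be given for low members such as Ndufa4l2 and Ndufaf6.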
